A study of Mus musculus with 12 samples.

Results

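The genes described here are the translation initiation and elongation factors, taken as every gene of the count table whose symbol begins with Eif or Eef followed by a digit. There were 59 of them among 14323 genes. Their RNA was measured in naïve CD8+ T cells (TCRβ+ cells that were also CD8+, CD62L+ and CD44-). The cells of 3 wild type mice were sorted from spleen and cultured for 6 h at 100000 cells per well in 4 conditions. Wells were coated with isotype control only (unstimulated isotype), with isotype and anti-LAIR-1 (unstimulated anti-LAIR-1), with anti-CD3 and isotype, or with both anti-CD3 and anti-LAIR-1, each antibody at 2.5 µg/ml. Anti-CD3 cross-links the T cell receptor complex, and the anti-LAIR-1 antibody is an agonist of LAIR-1, an inhibitory receptor for collagen. Each condition had 3 libraries, 1 from each mouse. No co-stimulatory antibody was listed for these wells, so that the stimulus was CD3 alone, and 1 time point was taken.

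Translation begins when eIF2, loaded with GTP and the initiator tRNA, joins the small ribosomal subunit with eIF1, eIF1A, eIF3 and eIF5, while the cap-binding protein eIF4E, the scaffold eIF4G and the helicase eIF4A (together eIF4F) bring in the mRNA. eIF2B reloads eIF2 with GTP, kinases of eIF2α and the 4E-binding proteins restrain initiation, eEF1A delivers aminoacyl tRNA and eEF2 moves the ribosome along. Naïve T cells are small and quiescent and make little protein, and antigen receptor signals lead them to grow and to raise protein synthesis before they divide.

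Libraries held 1781218 to 7725545 counts, with medians of 2304214, 3548881, 4883760 and 6204054 in the order of conditions above, and 3 counts corresponded to 0.407 to 1.58 CPM (the count of a gene over the TMM-scaled library total). All 9 genes listed as a check of stimulation rose with anti-CD3, among them Cd69 by 2.69 and Myc by 3.94 on the log2 scale. Lair1 itself was counted 0 to 7 times per library, too few to compare. The 6 CD8 T cell markers in the table summed to 2617 to 3024 CPM in unstimulated isotype libraries, 2786 to 2971 with isotype and anti-LAIR-1, 1402 to 1481 with anti-CD3 and isotype and 1757 to 1954 with both antibodies. Other cell types' markers summed to at most 17.9 CPM (5 B cell genes), 4.73 (3 CD4 T cell genes), 3.57 (4 myeloid genes), 1.06 (2 NK cell genes) and 0.396 (1 erythroid gene) in any library. Mitochondrially encoded genes made up 2.29% to 4.37% of the counts in unstimulated libraries and 1.08% to 1.85% in stimulated ones. The part of these differences in the results was not tested. Fewer cells of a type and less RNA per cell cannot be told apart in such bulk samples, and CPM values are shares of a library and do not measure the amount of RNA per cell.

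Translation factor RNA took a larger share of the library after anti-CD3. The 59 genes together made up 1.77% ± 0.00625 (SD, n = 3) of the counts in unstimulated isotype libraries and 3.26% ± 0.0498 with anti-CD3 and isotype. The share was 1.78% ± 0.0218 with isotype and anti-LAIR-1 and 3.11% ± 0.0813 with both antibodies, so that the stimulated and unstimulated libraries did not overlap. A large part of this rise came from Eif5a alone, whose mean went from 1493 CPM in unstimulated isotype libraries to 9115 with anti-CD3 and isotype. Of the 57 factors tested in the isotype libraries, 44 rose (77.2%, where 35.3% of all 8690 genes tested rose) and 5 fell (8.77%, against 36.1% of all genes), by edgeR's quasi-likelihood test at a Benjamini-Hochberg adjusted p under 0.05 over all genes. The median log2 fold change was 1.02 among the factors and -0.03 among all genes. A rise over 2-fold was seen in 29 factors (50.9%, against 20.8% of all genes) and one over 4-fold in 8 (14.0%, against 6.02%). The remaining 2 factors had too few counts to test: Eif3j2, a copy of an eIF3 subunit gene with at most 0.268 CPM in any library, and Eif2ak2, the double-stranded RNA-activated kinase PKR.

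**Figure D1:**
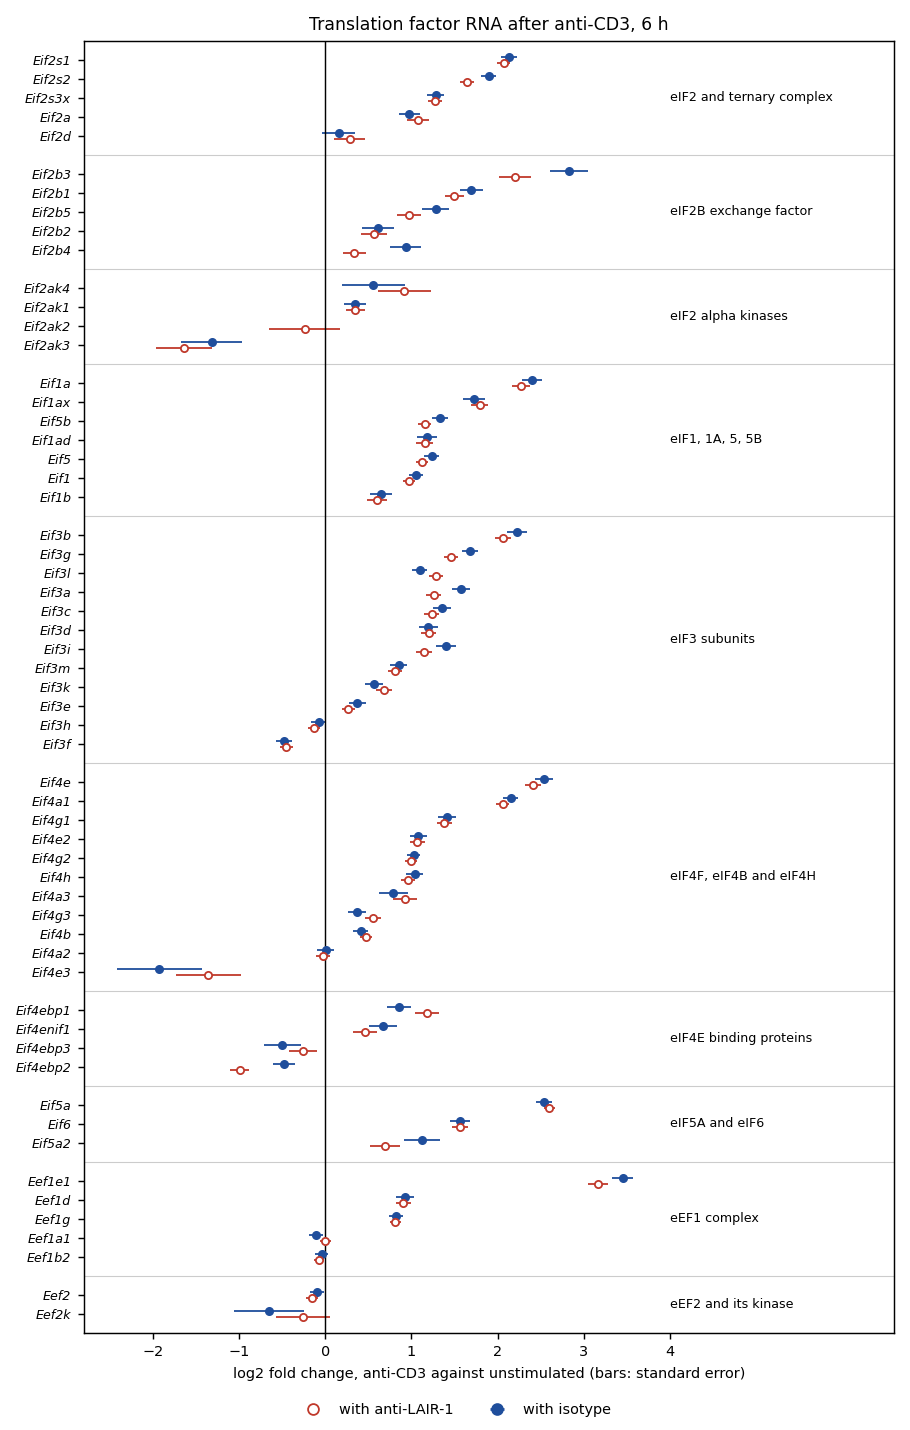
Log2 fold change of each translation factor with anti-CD3 against no stimulation (x axis), grouped by role, with isotype (filled blue) and with anti-LAIR-1 (open red), from edgeR with standard errors, 3 libraries per group. In both settings most points lie right of 0, from 3.45 for Eef1e1 with isotype down to -1.93 for Eif4e3, while Eif4a2, Eif3h, Eef1a1, Eef1b2 and Eef2 lie close to 0.

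Among the subunits of eIF2 and its neighbours, 4 of 5 genes rose and none fell. The shares of all genes given above (35.3% rose and 36.1% fell) apply to this and to the following counts by role. Eif2s1, which encodes the α subunit that the stress kinases phosphorylate, was at 163, 138 and 159 CPM in the unstimulated isotype libraries, 165, 153 and 162 with isotype and anti-LAIR-1, 694, 711 and 715 with anti-CD3 and isotype, and 689, 682 and 667 with both antibodies. Stimulated and unstimulated libraries did not overlap, and the change with anti-CD3 and isotype was 2.13 ± 0.09 on the log2 scale (± the standard error of the fit, as for all fold changes here, 4.37-fold, edgeR adjusted p = 1.77e-15). Eif2s2, the β subunit, which docks eIF5 and eIF2B, was at 176, 164 and 172 CPM in the unstimulated isotype libraries and 634, 699 and 672 with anti-CD3 and isotype, a change of 1.89 ± 0.09 (edgeR adjusted p = 8.81e-15). The X-linked gene of the γ subunit, Eif2s3x, was at 127, 116 and 139 CPM in the unstimulated isotype libraries and 328, 339.9 and 308 with anti-CD3 and isotype and rose by 1.28 ± 0.10 (edgeR adjusted p = 6.25e-11). Its Y-linked copy Eif2s3y had no row in the table and was not analysed here. Eif2a, an alternative carrier of initiator tRNA, rose by 0.98, whereas Eif2d, a factor of non-canonical initiation, had a log2 difference of 0.16 ± 0.19 that did not pass the test.

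All 5 genes of eIF2B, the exchange factor that reloads eIF2, rose. Eif2b3, the γ subunit, was at 5.64, 4.76 and 6.31 CPM in the unstimulated isotype libraries and 43.6, 42.5 and 38.5 with anti-CD3 and isotype, 7.09-fold higher (2.83 ± 0.22, edgeR adjusted p = 6.37e-11). The other 4 rose by 0.61 (Eif2b2) to 1.69 (Eif2b1). Of 3 kinases of eIF2α tested, 1 rose, 1 fell and 1 did not pass the test. Eif2ak3, the endoplasmic reticulum stress kinase PERK, was at 14.9, 5.55 and 8.94 CPM in the unstimulated isotype libraries, 7.17, 13.4 and 10.2 with isotype and anti-LAIR-1, 4.61, 3.86 and 4.21 with anti-CD3 and isotype, and 4.34, 3.40 and 1.90 with both antibodies. It fell by 1.32 on the log2 scale with anti-CD3 and isotype (edgeR adjusted p = 0.00199) without overlap of the groups, but its unstimulated values varied widely and the call was lost without the first mouse's unstimulated isotype library (log2 difference -0.84, adjusted p = 0.0789, range over alternatives 0.000367 to 0.0789). Eif2ak1, the haem-regulated kinase, was higher by 0.35 ± 0.12 (edgeR adjusted p = 0.0163), a call that 4 of 14 alternatives lost, among them those without the first mouse's unstimulated library or the third mouse's stimulated one. Eif2ak4, the amino acid sensor GCN2, was at 7.63, 2.38 and 4.21 CPM in the unstimulated isotype libraries, 2.76, 3.16 and 4.55 with isotype and anti-LAIR-1, 8.60, 7.08 and 7.29 with anti-CD3 and isotype, and 6.23, 7.14 and 6.77 with both antibodies. Its isotype groups overlapped and the difference of 0.56 ± 0.36 did not pass the test (edgeR adjusted p = 0.176), although it did so without the first mouse's unstimulated library (log2 difference 1.15, adjusted p = 0.027, range over alternatives 0.027 to 0.616).

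Listed with the scanning and subunit-joining factors eIF1, eIF1A, eIF5 and eIF5B were 7 genes, and all 7 rose. Eif1, which guards start codon choice, was at 1138, 998 and 1044 CPM in the unstimulated isotype libraries, 1166, 1067 and 1147 with isotype and anti-LAIR-1, 2437, 2259.5 and 2235 with anti-CD3 and isotype, and 2393, 2282 and 2045 with both antibodies, a change of 1.05 ± 0.08 with isotype (edgeR adjusted p = 4.21e-11). Of the genes for eIF1A, which holds the ribosome open for scanning, X-linked Eif1ax was at 72.7, 54.7 and 87.3 CPM in the unstimulated isotype libraries and 238, 240.4 and 264 with anti-CD3 and isotype and rose by 1.73 ± 0.13 (edgeR adjusted p = 2.28e-11). The other gene, Eif1a, was at 43.1, 38.8 and 32.1 CPM in the unstimulated isotype libraries and 213, 214 and 214 with anti-CD3 and isotype and rose by 2.40 ± 0.12 (edgeR adjusted p = 2.17e-14). In none of these did stimulated and unstimulated libraries overlap. The lowest rise was that of Eif1b, a copy of Eif1, at 0.64, and Eif5, the GTPase-activating factor of eIF2, and Eif5b, the subunit-joining GTPase, rose by 1.23 and 1.33.

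The eIF3 complex, which bridges the ribosome and the mRNA, had members in each class. Of 12 subunit genes tested, 10 rose, 1 fell and 1 did not pass the test. Eif3b, a core scaffold subunit, was at 49.1, 47.6 and 57.3 CPM in the unstimulated isotype libraries and 249.8, 267 and 234 with anti-CD3 and isotype, a rise of 2.22 ± 0.12 (edgeR adjusted p = 3.90e-14). Eif3f went the other way, at 244, 217 and 228 CPM in the unstimulated isotype libraries, 237, 237 and 237 with isotype and anti-LAIR-1, 175, 173 and 173 with anti-CD3 and isotype, and 177, 169 and 179 with both antibodies. Every stimulated library was below every unstimulated one, and the gene fell by 0.48 with isotype (SE 0.09, edgeR adjusted p = 8.41e-05). Eif3h, which with Eif3f forms the pair of MPN-domain subunits, was at 311, 302 and 281 CPM in the unstimulated isotype libraries and 302, 306 and 288 with anti-CD3 and isotype. Its groups overlapped, with a log2 difference of -0.08 ± 0.09 (edgeR adjusted p = 0.449). The other nine rose by 0.37 (Eif3e) to 1.68 (Eif3g).

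Of 11 genes listed with eIF4F and its helpers eIF4B and eIF4H, 9 rose, 1 fell and 1 did not pass the test. The list follows gene names, so that not every gene on it encodes a subunit of eIF4F. It holds the relatives Eif4a3, Eif4e2 and Eif4g2, which rose by 0.79, 1.08 and 1.02. Eif4e, the cap-binding subunit, was at 78.0, 67.0 and 77.8 CPM in the unstimulated isotype libraries, 69.2, 66.6 and 81.4 with isotype and anti-LAIR-1, 472, 432 and 459.7 with anti-CD3 and isotype, and 389.7, 414 and 362 with both antibodies. Every stimulated library was above every unstimulated one, and the change with isotype was 2.54 ± 0.10 (5.81-fold, edgeR adjusted p = 4.74e-16). The scaffold gene Eif4g1 was at 114, 112 and 97.8 CPM in the unstimulated isotype libraries, 114, 117 and 102 with isotype and anti-LAIR-1, 292, 315 and 306 with anti-CD3 and isotype, and 307, 298 and 275 with both antibodies, a rise of 1.41 ± 0.10 (edgeR adjusted p = 1.15e-11). Of the pair of genes for the eIF4A helicase, Eif4a1 passed the test and Eif4a2 did not. Eif4a1 was at 332, 302 and 332 CPM in the unstimulated isotype libraries, 337, 313 and 350.5 with isotype and anti-LAIR-1, 1544, 1557 and 1421 with anti-CD3 and isotype, and 1516, 1359 and 1339 with both antibodies, a rise of 2.15 ± 0.09 (edgeR adjusted p = 3.72e-16). Eif4a2 was at 261, 216 and 227 CPM in the unstimulated isotype libraries, 254, 259 and 247 with isotype and anti-LAIR-1, 261, 224 and 261 with anti-CD3 and isotype, and 238, 264 and 254 with both antibodies. All its groups overlapped, with a log2 difference of 0.00 ± 0.10 after anti-CD3 (edgeR adjusted p = 0.98). The log2 ratio of Eif4a1 to Eif4a2 counts went from 0.46 ± 0.10 (SD, n = 3) in unstimulated isotype libraries to 2.60 ± 0.18 with anti-CD3 and isotype, and was 2.48 ± 0.17 with both antibodies. Eif4e3, an atypical cap-binding protein, was at 7.30, 3.17 and 6.31 CPM in the unstimulated isotype libraries and 0.307, 1.93 and 1.94 with anti-CD3 and isotype and fell by 1.93 (SE 0.49, edgeR adjusted p = 0.00131), where 1 stimulated library held 1 count of it. The other 7 rose by 0.36 (Eif4g3, a second scaffold gene) to 1.41 (Eif4g1).

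**Figure D2:**
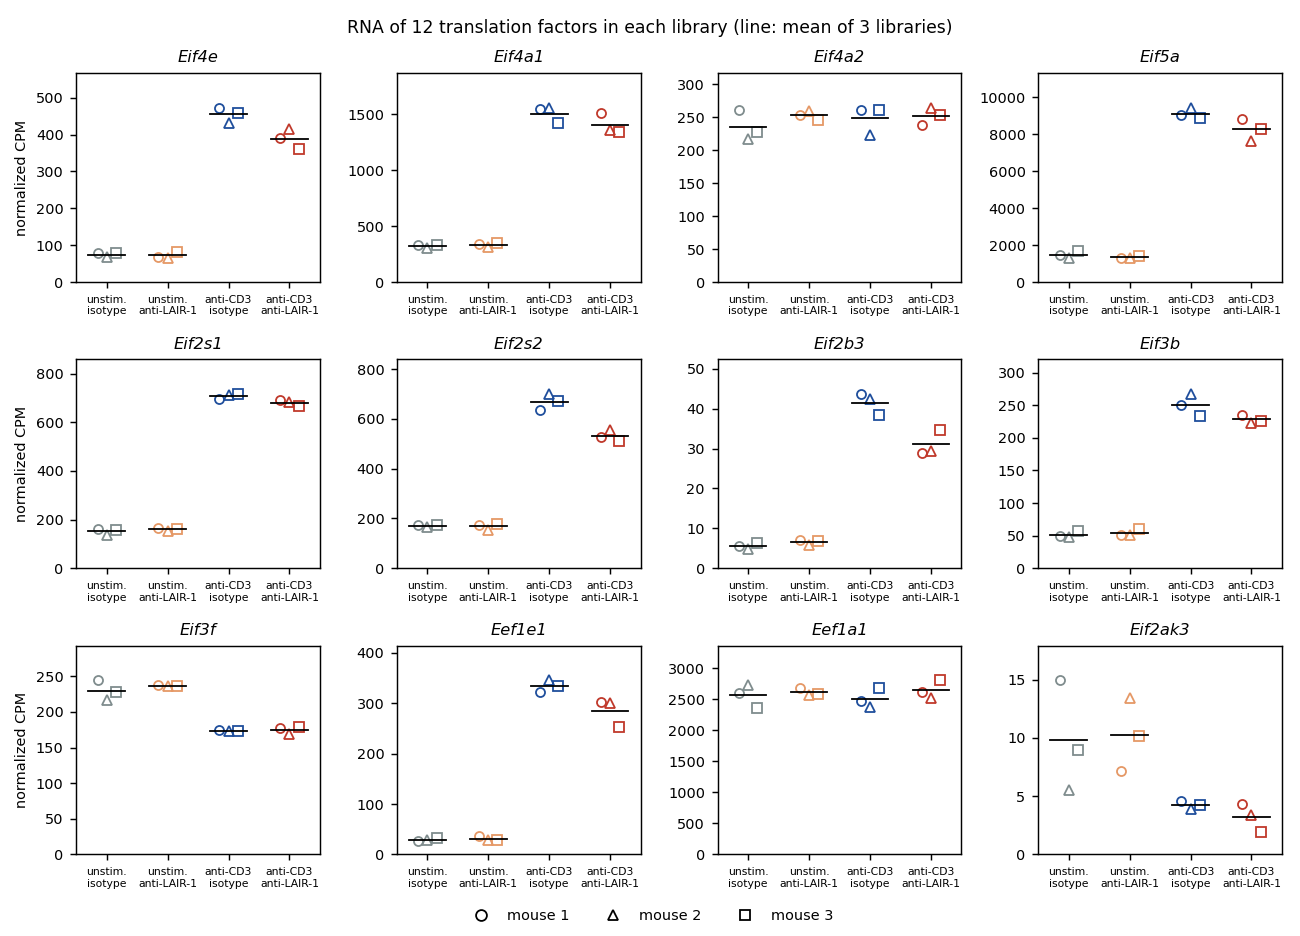
Normalized CPM (y axis, from 0, each panel with its own scale) of 12 translation factors in the 12 libraries, by condition, with a symbol for each mouse and a line at the mean of 3 libraries. Eif4e, Eif4a1, Eif5a, Eif2s1, Eif2s2, Eif2b3, Eif3b and Eef1e1 separate fully by stimulation, Eif4a2 and Eef1a1 do not, and Eif3f and Eif2ak3 are lower with anti-CD3.

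Of the 4 genes for proteins that bind eIF4E, 2 rose and 2 fell. Eif4ebp1, the mTOR-regulated repressor 4E-BP1, was at 34.5, 30.9 and 33.1 CPM in the unstimulated isotype libraries and 63.0, 57.9 and 67.0 with anti-CD3 and isotype and rose by 0.86 ± 0.14 (edgeR adjusted p = 8.60e-06). Its relative Eif4ebp2 was at 65.7, 70.6 and 73.1 CPM in the unstimulated isotype libraries, 92.9, 80.0 and 77.1 with isotype and anti-LAIR-1, 49.8, 57.9 and 49.5 with anti-CD3 and isotype, and 42.4, 44.4 and 40.2 with both antibodies, and fell by 0.48 with isotype (SE 0.13, edgeR adjusted p = 0.00179) without overlap. Eif4ebp3, the third relative, was at 32.5, 23.8 and 16.8 CPM in the unstimulated isotype libraries and 19.7, 17.8 and 18.5 with anti-CD3 and isotype. These groups overlapped in part, and the fall of 0.50 (edgeR adjusted p = 0.0409) was lost with the mouse as a block (-0.44, adjusted p = 0.0698, range over alternatives 0.00604 to 0.372) and without any 1 of the 6 libraries except the third mouse's unstimulated one. Eif4enif1, which carries eIF4E to processing bodies, rose by 0.67. Eif5a, Eif5a2 and Eif6 all rose. Eif5a, the hypusine-bearing factor that helps ribosomes past stalling sequences, was at 1457, 1316 and 1707 CPM in the unstimulated isotype libraries, 1330.1, 1321 and 1390.1 with isotype and anti-LAIR-1, 9028, 9416 and 8899.9 with anti-CD3 and isotype, and 8848, 7650.1 and 8287 with both antibodies, a change of 2.53 ± 0.09 (5.79-fold, edgeR adjusted p = 6.50e-17). Eif6, which keeps free large subunits from joining too early, was at 67.0, 82.4 and 93.1 CPM in the unstimulated isotype libraries and 254, 235 and 261 with anti-CD3 and isotype, a rise of 1.56 ± 0.12 (edgeR adjusted p = 3.70e-11).

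Of 7 genes listed with elongation, 3 rose and 0 fell with anti-CD3 and isotype, where 35.3% of all genes rose and 36.1% fell. Eef1a1, the main carrier of aminoacyl tRNA, was at 2594, 2732 and 2358 CPM in the unstimulated isotype libraries, 2675, 2569.6 and 2588 with isotype and anti-LAIR-1, 2473, 2370.0 and 2687 with anti-CD3 and isotype, and 2612, 2526 and 2802 with both antibodies. The 4 conditions overlapped, with a log2 difference of -0.11 ± 0.08 after anti-CD3 with isotype (edgeR adjusted p = 0.253). Eef1b2, of its exchange complex, was at 3439, 3206 and 3355 CPM in the unstimulated isotype libraries and 3468, 3324 and 3449 with anti-CD3 and isotype, a log2 difference of -0.04 ± 0.07 that did not pass the test, whereas the partner subunits Eef1d and Eef1g rose by 0.92 and 0.82. Eef2, the translocase, was at 1684, 1386 and 1577 CPM in the unstimulated isotype libraries, 1781, 1602 and 1669 with isotype and anti-LAIR-1, 1553, 1586 and 1440.3 with anti-CD3 and isotype, and 1617, 1532 and 1450.2 with both antibodies, again with overlap (log2 difference -0.10 ± 0.08, edgeR adjusted p = 0.299). Its inhibitory kinase Eef2k was at 3.32, 8.32 and 5.78 CPM in the unstimulated isotype libraries and 2.77, 3.43 and 4.86 with anti-CD3 and isotype, also not called (-0.65 ± 0.40, edgeR adjusted p = 0.152), although lower by the test without the first mouse's unstimulated library (edgeR adjusted p = 0.0469, range over alternatives 0.0469 to 0.633). The third gene to rise was Eef1e1, a scaffold protein of the multi-tRNA synthetase complex that is named after eEF1. It was at 26.9, 28.9 and 32.1 CPM in the unstimulated isotype libraries, 36.1, 29.5 and 28.9 with isotype and anti-LAIR-1, 323, 345 and 334 with anti-CD3 and isotype, and 302, 300.3 and 253 with both antibodies, the largest fold among the 57 genes at 10.9-fold (3.45 ± 0.12, edgeR adjusted p = 3.42e-17).

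Whether Eef1a1, Eef1b2, Eef2 and Eif3h passed the test depended on the scaling. With upper-quartile scaling, which moved the median of all genes from -0.03 to -0.20, these 4 passed the test as lower (-0.28, -0.22, -0.27 and -0.25), and 41 factors were higher and 9 lower in place of 44 and 5. Relative to the median of all genes they stood at -0.08, -0.02, -0.07 and -0.05 under either scaling. Reads that map equally well to several places of the reference transcriptome were discarded. Genes with near-identical copies elsewhere, such as Eef1a1, Eif4a1 and Eif5a, may be undercounted where that reference holds a copy, which was not examined.

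The DNA upstream of the start sites of these genes was searched for short motifs. RefSeq promoter sequences (GRCm38.p6) were at hand for 46 of the 59 factors, 39 with 1 start site and 7 with several, and the 250 bases before each start were searched on both strands for 5 motifs. The E-box CACGTG, the site that the growth regulator Myc and its relatives bind, stood before 11 of 46 factors (23.9%) and before 9.50% of 10468 genes of the table. Counted by window, it was in 13 of 61 (21.3%) against 7.98% of 13222, where windows of 1 gene can overlap. It was present in 8 of 35 that rose and in 3 of 11 that did not rise or were not tested, where 12.8% of 2360 genes that rose and 9.83% of 4271 tested genes that did not rise held it. Of the 5 stretches that held an E-box and no annotated exon, 4 are printed here, and that of Eef2k, a factor with few counts that was not called, is left out. They are written 5′ to 3′ on the gene's strand with the E-box in capitals, those of Eif4a1 and Eif5a, which rose, and those of Eif3f, which fell, and Eef2, which was not called.
Eif4a1 (chr11:69672424-69672673, minus strand): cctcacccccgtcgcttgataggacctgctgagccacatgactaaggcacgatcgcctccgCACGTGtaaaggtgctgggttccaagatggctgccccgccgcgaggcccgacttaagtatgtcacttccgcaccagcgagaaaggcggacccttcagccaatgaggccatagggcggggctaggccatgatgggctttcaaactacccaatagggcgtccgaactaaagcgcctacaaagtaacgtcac
Eif5a (chr11:69921387-69921636, minus strand): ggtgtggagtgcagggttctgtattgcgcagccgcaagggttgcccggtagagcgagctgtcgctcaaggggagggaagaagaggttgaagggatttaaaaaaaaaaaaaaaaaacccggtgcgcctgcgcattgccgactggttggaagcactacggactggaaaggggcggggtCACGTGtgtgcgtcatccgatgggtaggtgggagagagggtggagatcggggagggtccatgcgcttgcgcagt
Eif3f (chr7:108934165-108934414, plus strand): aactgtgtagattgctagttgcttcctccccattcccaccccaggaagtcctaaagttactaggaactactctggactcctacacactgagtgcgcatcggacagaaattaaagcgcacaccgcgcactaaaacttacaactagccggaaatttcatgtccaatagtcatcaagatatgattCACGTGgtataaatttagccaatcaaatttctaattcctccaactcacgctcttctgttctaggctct
Eef2 (chr10:81176381-81176630, plus strand): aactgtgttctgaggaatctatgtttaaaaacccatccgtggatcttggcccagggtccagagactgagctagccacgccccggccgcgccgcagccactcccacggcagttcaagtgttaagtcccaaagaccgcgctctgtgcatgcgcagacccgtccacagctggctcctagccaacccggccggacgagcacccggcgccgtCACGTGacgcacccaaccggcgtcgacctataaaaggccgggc
The E-box began 189, 74, 68 and 43 bases before the start site in these 4 stretches. That of Eif5a lies before 1 of several start sites and within the gene as annotated in GENCODE (chr11:69916714-69921958), which begins further upstream. Eif4e carried 2 E-boxes, 228 and 64 bases before its start. The stretch lies within the gene as annotated in GENCODE (chr3:138526179-138559696), and all of it is covered by annotated exons, counted on either strand. The CRE TGACGTCA was found before 0 of 46 factors (3.05% of genes), the ETS motif CCGGAAGT before 5 (10.9%, against 6.33%), TATAAA before 4 (8.70%, against 8.61%) and GGGCGG before 33 (71.7%, against 60.4%). A match of letters is a description and does not show that a factor binds there.

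With anti-LAIR-1 present, anti-CD3 changed much the same number of factors. Of 58 tested, 45 rose (36.4% of all 9000 genes tested rose) and 5 fell (36.3% of all genes), and the median log2 fold change was 0.96 against -0.04 for all genes. In both settings 44 factors rose and 4 fell (Eif3f, Eif4ebp2, Eif2ak3 and Eif4e3). Most genes were called in each setting, 6199 of 8690 tested with isotype and 6541 of 9000 with anti-LAIR-1. How many of all genes shared their call was not counted, so that the sharing is not read as a trait of the factors. The 5 highest were Eef1e1 at 3.16, Eif5a at 2.60, Eif4e at 2.41, Eif1a at 2.27 and Eif2b3 at 2.20. The 5 lowest called were Eif2ak3 at -1.64, Eif4e3 at -1.35, Eif4ebp2, Eif3f at -0.45 and Eef2. Eif4ebp2 stood at -0.99 ± 0.11 (edgeR adjusted p = 1.50e-07). Eif2ak4 passed the test as higher in this setting alone (0.92 ± 0.31, edgeR adjusted p = 0.0118), Eif4ebp3 did not pass it (-0.26 ± 0.16), and Eef2 passed it as lower (-0.15 ± 0.07, edgeR adjusted p = 0.0492), a call that the mouse as a block removed (edgeR adjusted p = 0.0553, range over alternatives 0.000129 to 0.499) and that was also lost in 4 of 6 fits without 1 library, as was that of Eif2ak4 without the first mouse's unstimulated anti-LAIR-1 library (log2 difference 0.78, edgeR adjusted p = 0.0505, range over alternatives 0.00576 to 0.11). None of these differences between the settings passed the interaction test given further on.

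In stimulated cells, anti-LAIR-1 against isotype gave small differences that leaned downwards. Of 58 factors tested, 3 fell (1.86% of all 8800 genes tested fell) and 0 rose (3.90% of all genes rose), by edgeR's quasi-likelihood test. The share called in either direction (5.17%) was thus close to that of all genes (5.76%). DESeq2 called 4 of 54 factors, and 421 of 7676 genes. The median difference was -0.09 on the log2 scale against 0.00 for all genes, and 43 factors lay below 0 (74.1%, against 49.4% of all genes). In the single mice the factors' medians were -0.05, -0.09 and -0.10. Lower values with anti-LAIR-1 in all 3 mice were seen for 30 of 58 (51.7%), where 20.0% of all genes were lower in all 3, and higher values in all 3 mice for 4 (6.90%, where 20.5% of all genes were higher). The libraries did not overlap, with anti-LAIR-1 lower, for 19 factors (32.8%, where 12.1% of all genes did so), and with anti-LAIR-1 higher for 0 (12.2% of all genes). The share of counts from mitochondrially encoded genes moved with this comparison without overlap, at 1.62% to 1.85% with isotype and 1.08% to 1.57% with anti-LAIR-1, as did the CD8 T cell markers given above, and their part in the result was not tested.

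**Figure D3:**
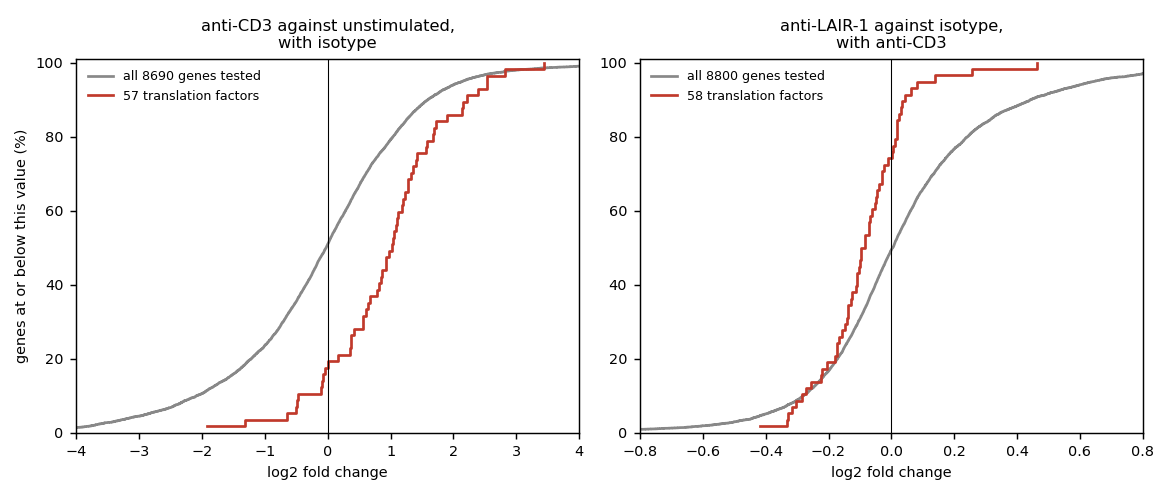
Share of genes (y axis, in percent) at or below each log2 fold change (x axis) for the translation factors (red) and for all genes tested (grey), with anti-CD3 against no stimulation (left) and anti-LAIR-1 against isotype in stimulated cells (right). The factors' curve is shifted right of all genes on the left (medians 1.02 and -0.03) and slightly left of them on the right (medians -0.09 and 0.00), where it is also steeper.

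The 3 factors that fell act at different steps of initiation. Eif2s2 (chr2:154871410-154892935, minus strand), the β subunit of eIF2, was at 634, 699 and 672 CPM with anti-CD3 and isotype and 526, 554 and 513 with both antibodies. The groups did not overlap, and the fall was 0.33 on the log2 scale (SE 0.07, edgeR adjusted p = 0.00653), called in all 14 alternatives. Eif3a (chr19:60761117-60790658, minus strand), the largest eIF3 subunit, was at 362, 320.3 and 299.9 CPM with anti-CD3 and isotype and 273, 269.9 and 242 with both antibodies. It too did not overlap and fell by 0.31 (SE 0.08, edgeR adjusted p = 0.0279), a call kept in 10 of 14 alternatives. Eif5b (chr1:37998010-38055579, plus strand), the GTPase that joins the ribosomal subunits, was at 623, 610.2 and 544 CPM with anti-CD3 and isotype and 462, 515 and 488 with both antibodies, again without overlap, and fell by 0.27 (SE 0.07, edgeR adjusted p = 0.0359), kept in 7 of 14. The last 500 bases of Eif5b overlap an exon of Rev1 on the opposite strand. Without any 1 of 4 libraries (isotype of the first or second mouse, anti-LAIR-1 of the second or the third) Eif2s2 alone of the 3 passed the test. With anti-LAIR-1, all 3 stood above every unstimulated library, and in the presence of anti-LAIR-1 anti-CD3 raised them by 1.64, 1.26 and 1.15.

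**Figure D4:**
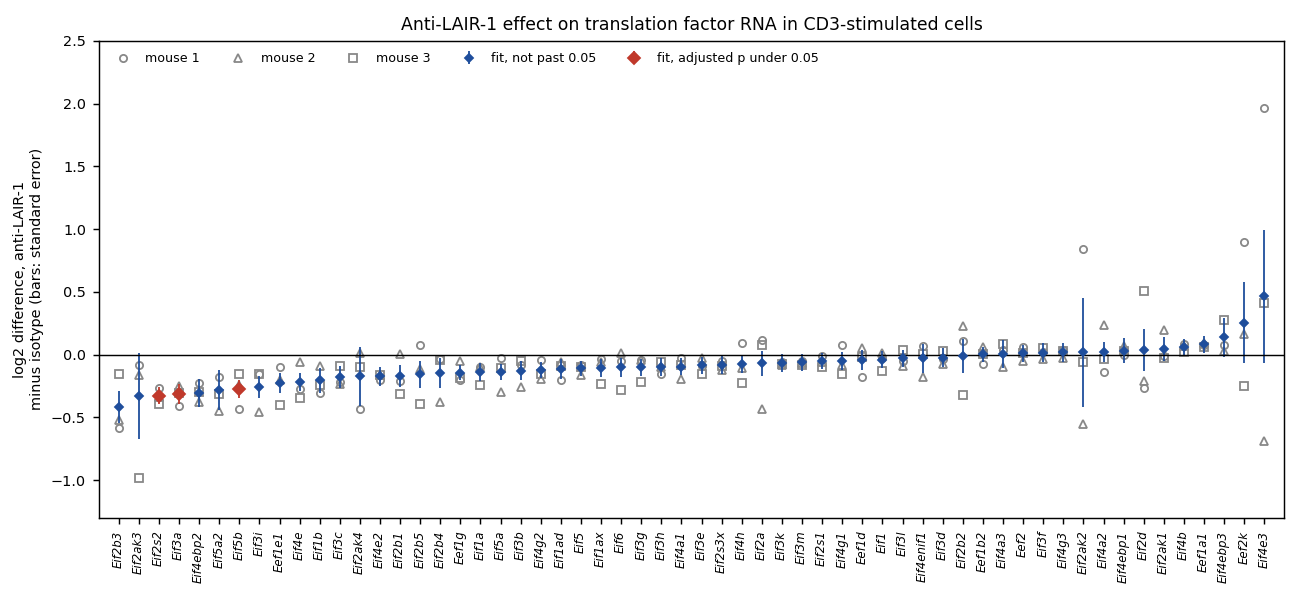
Log2 difference of anti-LAIR-1 minus isotype in CD3-stimulated cells (y axis) for the 58 factors tested, in order of the fitted value: grey symbols are the single mice, diamonds the edgeR fit with its standard error, red for the 3 that passed the test. Most diamonds lie slightly below 0, and the widest spread between mice is at Eif4e3, Eef2k, Eif2ak2 and Eif2ak3, which have few counts.

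Several of the factors with the highest rises after anti-CD3 had negative differences with anti-LAIR-1 that did not pass the test. Eif2b3 was at 43.6, 42.5 and 38.5 CPM with anti-CD3 and isotype and 29.0, 29.4 and 34.7 with both antibodies, a log2 difference of -0.42 ± 0.12 (edgeR adjusted p = 0.0589). Eif4e differed by -0.22 ± 0.07 (edgeR adjusted p = 0.0805) and Eef1e1 by -0.22 ± 0.08 (edgeR adjusted p = 0.109). Their libraries did not overlap between isotype and anti-LAIR-1, as the values given above show. Eif5a differed by -0.14 ± 0.06, Eif4a1 by -0.10 ± 0.07, Eif4g1 by -0.05 ± 0.07, Eif2s1 by -0.05 ± 0.06 and Eif6 by -0.10 ± 0.08. Eif4ebp2 had a negative difference as well (-0.30 ± 0.11, edgeR adjusted p = 0.131), again not called. Among factors that anti-CD3 left near their starting level, the differences were 0.08 ± 0.07 for Eef1a1, 0.01 ± 0.07 for Eef2, 0.00 ± 0.06 for Eef1b2 and 0.02 ± 0.08 for Eif4a2, whose groups overlapped. Eif3h stood at -0.10 ± 0.07, lower in all 3 mice without overlap and not called. The isotype libraries with anti-CD3 enter both this comparison and the first, so that the values are set side by side only.

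In unstimulated cells, anti-LAIR-1 gave no called difference. Of 57 factors tested, 0 passed edgeR's test, as did 0.00% of all 8770 genes, and 1 had an unadjusted p under 0.05 (4.38% of all genes; DESeq2 0 factors). This was Eif2b4, the δ subunit of eIF2B, at 22.9, 20.6 and 14.7 CPM with isotype and 30.0, 25.8 and 28.1 with anti-LAIR-1 (0.48 ± 0.19), named after its value was seen. The median difference was 0.01.

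The interaction, the difference between the anti-LAIR-1 effects with and without anti-CD3 in a fit of all 12 libraries, passed the test for 0 of 58 factors and for 2.07% of 9223 genes by edgeR. At an unadjusted p under 0.05 there were 6 factors (12.2% of all genes; DESeq2 5 factors). The lowest values were -0.66 ± 0.30 for Eif2b3, -0.62 ± 0.22 for Eif2b4 and -0.54 ± 0.16 for Eif4ebp2 (edgeR adjusted p = 0.361, 0.175 and 0.091). The median was -0.06 against 0.04 for all genes, with 43 factors below 0 (74.1%, against 45.0%).

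The genes around these factors, a list of 59 regulators, termination factors, hypusine and diphthamide enzymes and mitochondrial translation factors, were read in the same fits. Of 52 tested with anti-CD3 and isotype, 33 rose (35.3% of all 8690 genes tested did) and 7 fell (36.1% of all genes), with a median of 0.70. The highest were Etf1, the termination factor eRF1, at 2.35, Larp1, which binds mRNAs of the translation machinery, at 1.96, and Pabpc4, a poly(A)-binding protein, at 1.86. The lowest were Pdcd4, an inhibitor of the eIF4A helicase, at -2.88, Gtpbp2, a GTPase of ribosome rescue, at -2.19, and Paip2, an inhibitor of poly(A)-binding protein, at -1.93. By role, 9 of 17 eIF4 regulators rose and 3 fell, 9 of 12 eIF2 regulators rose and 2 fell, 6 of 8 termination factors rose and 2 fell, 5 of 6 hypusine and diphthamide enzymes rose, and 4 of 9 mitochondrial factors rose. The shares of all genes given above apply to these counts too. With anti-LAIR-1 in stimulated cells, 3 of 51 passed the test (5.76% of all genes did). Larp1 fell by 0.32 (edgeR adjusted p = 0.0436) and Rps6kb1, the S6 kinase, by 0.36 (edgeR adjusted p = 0.0376), both near the threshold. Gtpbp2 rose by 0.83 (edgeR adjusted p = 0.00788) and was the 1 gene of the list to pass the interaction test (0.92, edgeR adjusted p = 0.0248, where 2.07% of all genes passed). The alternative fits were read for the factors alone, so that how far these calls depend on the processing was not examined.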

How the data were processed

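RNA of 12 libraries, 1 per mouse and condition, was measured by CEL-seq, which reads each transcript near its 3′ end. The authors deposited raw read counts per gene symbol, made by BWA MEM alignment to the mm10 transcriptome with reads of equally good multiple hits discarded. Whether molecular identifiers were collapsed is not given in the sources used here, so that limits from counts cover counting error only. The genes, lists and tests were chosen with earlier results of these data known.

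Each comparison was fitted on its own 6 libraries, and the interaction on all 12, with edgeR 4.0.16 (R 4.3.3), TMM scaling, the filterByExpr filter and the quasi-likelihood F-test, adjusted by Benjamini-Hochberg over all genes tested at 0.05. Standard errors are the log2 fold change divided by the square root of F, and log2 values of single libraries used a prior count of 2. The study's methods name DESeq2, which was run as an alternative (1.42.0). Others were edgeR and DESeq2 with the mouse as a block, DESeq2 size factors, upper-quartile scaling, no filter, at least 10 counts in every library, all libraries in 1 fit, and each library left out in turn. Libraries with the same number came from the same mouse, by the labels and the sorting per mouse in the methods. Across 12 pairs of such libraries, deviations from group means correlated by 0.0528 on average (-0.00729 to 0.100). No 2 libraries of a group agreed within sampling noise (chi-square per degree of freedom 3.72 to 5.49, over genes with at least 15 counts in a pair). The fits were also run on simulated counts in which few genes changed, as many up as down. With anti-CD3 and isotype 6199 of 8690 genes were called, so that those runs do not speak to the scaling there.

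Named were all factors by role, 17 chosen factors by library, every factor past the test with anti-LAIR-1 or in the interaction, the 5 highest and 5 lowest called with anti-CD3, and pathway genes that were called with anti-LAIR-1 or were the 3 highest or lowest called with anti-CD3. Library values of Eif2s1, Eif3b, Eif3h, Eef1b2 and Eif2b4 were printed outside these rules. Symbols were matched to GENCODE M21 (GRCm38), 59 of 59 as protein coding, on the chromosome given in the counts for 58. The exception was Eif3j2, on chromosome 2 in the counts and 18 in GENCODE, so that the locus it counts is uncertain. Another gene's exon lies within the last 500 bases on the same strand for 3 factors (Eef1a1, Eef1d and Eif4ebp3) and on the opposite strand for 3 (Eif3m, Eif4a2 and Eif5b), and their counts are less certain. Motifs and sequences are from RefSeq promoters.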

Additional observations from a re-analysis of the deposited data

How the results depend on the processing

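The number of factors called with anti-CD3 was 44 to 50 with isotype and 46 to 51 with anti-LAIR-1 over the alternatives, and 47 to 49 in both when 1 library was left out; 42 of 49 and 43 of 50 calls were kept in every alternative that tested them. With anti-LAIR-1 in stimulated cells, 3 were called, 5 with no filter on low counts (Eif2b3 and Eif3i were added), 4 by DESeq2 (Eif4e was added), and 1 to 3 with 1 library left out. The count of 1 came without the second mouse's isotype library or without its anti-LAIR-1 library. No factor was called with anti-LAIR-1 in unstimulated cells or in the interaction under any alternative run. Eef1a1, at 0.00 with both antibodies against isotype and anti-LAIR-1, became lower (-0.21, edgeR adjusted p = 0.00679) with upper-quartile scaling, which moved the median of all genes from -0.04 to -0.24 and gave 41 higher and 10 lower in place of 45 and 5. With the mouse as a replicate block, edgeR gave 48, 49, 3, 0 and 0 calls in the 5 comparisons in the order reported, and changed no call besides Eif4ebp3 and Eef2. The cause of these changes was not tested. The low counts of Eif2ak2, Eif2ak3, Eif2ak4, Eef2k and Eif4e3 limit what could be seen for them.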

Other observations

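Several factors that anti-CD3 left near their starting level are commonly counted among the TOP mRNAs, transcripts of the translation machinery that begin with a run of pyrimidines and whose translation is governed by mTOR. Of the factors so known, 9 were listed after the values had been seen (Eef1a1, Eef1b2, Eef1d, Eef1g, Eef2, Eif3e, Eif3f, Eif3h and Eif4b), and the list was given no test for that reason. The list need not be complete. With anti-CD3 and isotype, 4 of the 9 rose (35.3% of all 8690 genes tested did) and 1 fell (36.1% of all genes). Their median log2 fold change was -0.04, with a range of -0.48 to 0.92, and all 9 lay below the median of the 57 factors. Of the other 48 factors, which may include TOP mRNAs as well, 40 rose and 4 fell, with a median of 1.11. Since the 9 were picked with these values in view, the contrast is a description and cannot show a trait of TOP mRNAs. With anti-LAIR-1 in stimulated cells the medians were 0.00 for the 9 and -0.10 for the other 49.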
